A study of Mus musculus with 6 samples.

Results

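Collagens are the main structural proteins of the extracellular matrix. All 44 mouse collagen genes of the RefSeq table were represented on the arrays, out of 22180 genes named by probe sets with 1 gene symbol. Members were every gene whose symbol reads Col, a number, a and a number, which took in 47 probe sets of 41345. By the class of protein they encode, 11 were fibrillar, 6 formed basement membranes, 9 were FACITs (fibril-associated collagens with interrupted helices) and 18 belonged to other classes. Each of Col1a2, Col5a1 and Col6a1 had 2 probe sets, and the brighter stood for the gene.

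RNA came from 6 cultures of mouse cancer cells, 1 array each, in 3 established lines. Arrays labelled sh Spp1 carried the genotype label Spp1 depletion, and those labelled sh Ctrl carried the label wild type, with 1 of each from LLC (Lewis lung carcinoma), AE17 (malignant mesothelioma) and MC38 (colon adenocarcinoma). The hairpin RNA is directed against Spp1, the gene of osteopontin, a secreted matrix glycoprotein, and serum was present in the medium of every culture. The labels do not say whether the controls carried a control hairpin or whether the lines were clones, and 0 named probe sets carry the symbol Spp1, so directions rest on the labels.

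Collagen chains wind around one another as trimers, some made of 1 kind of chain and some of several, so the genes of a collagen type are often expressed together. Fibrillar collagens make the banded fibres of connective tissue, and type IV collagens make the sheet under epithelia and around vessels. FACITs bind to the surface of fibres. The other classes include the beaded filaments of type VI, the network of type VIII, collagens that span the cell membrane, and the multiplexins Col15a1 and Col18a1 of basement membrane zones. In tumours much of the fibrillar collagen is known to come from fibroblasts, while the carcinoma cells themselves often make less.

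Levels are log2 intensities after quantile normalization between arrays, and a ratio is the log2 level on the sh Spp1 array minus that on the sh Ctrl array of the same line. Each ratio thus compares a pair of single arrays and has no replicate check. The floor, a log2 intensity of 4.49, is the 30th percentile of mean brightness over all probe sets. A total of 43 collagens lay above it in the mean and were tested, and Col28a1 did not. Levels of different probe sets were not set against each other. In bulk RNA, fewer cells that make a transcript and less transcript per cell cannot be told apart.

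The AE17 arrays correlated across all probe sets at r = 0.939, against 0.979 for the LLC arrays and 0.982 for the MC38 arrays. MC38 over LLC was therefore also fitted without AE17, and the test over the lines with each line left out. The AE17 ratios themselves rest on these arrays alone. The cell type labels were only in part borne out by markers. Of 6 mesothelium markers, 1 was under the floor on the sh Spp1 array of AE17 and 2 on its sh Ctrl array, with summed normalized intensities of 235 and 206, against 1173 and 1096 in MC38. Of 7 lung and simple epithelium markers 1, Epcam, was under the floor on both arrays of LLC. The count was 1 on each MC38 array and the sh Ctrl array of AE17, and 2 on its sh Spp1 array. It thus did not set LLC apart. Sums of these markers on the sh Spp1 and sh Ctrl arrays were 1256 and 1042 in LLC and 345 and 282 in MC38. In AE17 they were 289 and 2392. Of 5 intestinal markers 0 were under the floor on the sh Spp1 array and 1 on the sh Ctrl array of MC38. The intestinal markers did not set MC38 apart, with sums of 144 on both its arrays. On the sh Spp1 and sh Ctrl arrays, LLC had 158 and 138 and AE17 had 140 and 238. For other cell types, 2 of 6 endothelial markers were under the floor on every array, and 3 to 4 of 7 leukocyte markers, with the defining gene Ptprc under it on all 6 arrays.

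Promoters of 7 collagens are shown because their data bear on whether neighbouring or partner genes move together. Col4a1 and Col4a2 start head to head, Col6a1 and Col6a2 are neighbours, Col3a1 and Col8a1 were higher with Col6a1 and Col6a2 on the sh Spp1 array of AE17, and Col1a2 is the partner of Col1a1. Each window runs from 250 bases before to 50 after the transcription start, from RefSeq on GRCm38.p6, and is written 5′ to 3′ on the gene's strand. Capitals mark 4 motifs searched on both strands, and adjoining matches run together. The CCAAT box was searched as CCAAT and its reverse complement, the GC box as GGGCGG and its reverse complement, the TATA box as TATAAA and its reverse complement, and the AP-1 element as TGANTCA, which reads alike on the other strand.
Col4a1: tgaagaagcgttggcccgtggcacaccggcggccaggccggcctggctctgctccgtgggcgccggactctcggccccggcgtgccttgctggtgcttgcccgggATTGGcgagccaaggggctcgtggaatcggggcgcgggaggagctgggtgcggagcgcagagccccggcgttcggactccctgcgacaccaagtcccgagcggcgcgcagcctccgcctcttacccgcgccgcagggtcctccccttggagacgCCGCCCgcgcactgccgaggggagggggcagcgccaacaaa
Col4a2: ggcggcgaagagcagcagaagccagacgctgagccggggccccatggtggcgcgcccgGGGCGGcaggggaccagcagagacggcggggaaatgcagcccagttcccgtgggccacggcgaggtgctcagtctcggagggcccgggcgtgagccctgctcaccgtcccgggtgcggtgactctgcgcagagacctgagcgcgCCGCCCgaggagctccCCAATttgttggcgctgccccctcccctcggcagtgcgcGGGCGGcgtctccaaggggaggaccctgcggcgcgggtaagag
Col1a2: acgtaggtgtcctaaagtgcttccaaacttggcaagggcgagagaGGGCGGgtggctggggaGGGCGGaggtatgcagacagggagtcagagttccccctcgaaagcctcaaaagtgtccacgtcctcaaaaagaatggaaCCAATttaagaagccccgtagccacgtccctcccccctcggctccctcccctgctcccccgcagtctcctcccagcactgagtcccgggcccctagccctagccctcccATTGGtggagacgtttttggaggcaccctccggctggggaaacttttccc
Col3a1: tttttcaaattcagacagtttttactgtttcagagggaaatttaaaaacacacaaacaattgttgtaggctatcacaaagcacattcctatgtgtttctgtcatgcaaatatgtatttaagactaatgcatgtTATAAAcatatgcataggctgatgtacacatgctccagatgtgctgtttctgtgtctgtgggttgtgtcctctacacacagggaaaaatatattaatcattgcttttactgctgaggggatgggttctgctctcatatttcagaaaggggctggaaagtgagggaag
Col6a1: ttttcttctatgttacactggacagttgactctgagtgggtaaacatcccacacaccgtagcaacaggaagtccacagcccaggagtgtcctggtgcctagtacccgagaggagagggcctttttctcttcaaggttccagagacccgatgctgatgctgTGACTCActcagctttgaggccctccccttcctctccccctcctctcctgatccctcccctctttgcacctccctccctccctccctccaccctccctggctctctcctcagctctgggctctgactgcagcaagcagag
Col6a2: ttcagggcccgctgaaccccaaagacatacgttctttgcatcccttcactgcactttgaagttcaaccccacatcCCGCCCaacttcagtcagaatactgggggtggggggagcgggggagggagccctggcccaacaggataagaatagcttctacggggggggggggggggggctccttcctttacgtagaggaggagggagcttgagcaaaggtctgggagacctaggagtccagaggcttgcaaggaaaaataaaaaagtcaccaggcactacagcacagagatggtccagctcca
Col8a1: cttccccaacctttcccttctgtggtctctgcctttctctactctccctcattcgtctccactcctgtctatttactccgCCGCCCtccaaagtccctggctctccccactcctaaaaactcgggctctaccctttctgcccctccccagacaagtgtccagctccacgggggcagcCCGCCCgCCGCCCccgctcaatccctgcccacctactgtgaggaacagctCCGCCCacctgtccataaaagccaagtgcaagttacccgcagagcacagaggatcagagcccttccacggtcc
The table of promoters held 35 of the 44 genes, in 38 windows. Not among them were Col1a1, Col2a1, Col4a3, Col5a2, Col9a3, Col12a1, Col14a1, Col22a1 and Col26a1.

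The windows of Col4a1 (chr8:11312777-11313076, minus strand) and Col4a2 (chr8:11312555-11312854, plus strand) overlap by 78 bases, and the annotated starts lie 21 bases apart. A GC box at chr8:11312812-11312817 is in both windows. Windows were placed at chr6:4505368-4505667 (plus) for Col1a2, chr1:45311288-45311587 (plus) for Col3a1 and chr16:57754688-57754987 (minus) for Col8a1. Those of the neighbours were at chr10:76725995-76726294 (minus) for Col6a1 and chr10:76623581-76623880 (minus) for Col6a2. A GC box was found in 60.5% of the 38 collagen windows and in 35.7% of all 32851 windows of the table, and a CCAAT box in 34.2% and 37.4%. TATA boxes were in 13.2% and 13.6%, and AP-1 elements in 2.63% and 7.81%. The only AP-1 element in the 38 collagen windows was that of Col6a1, 90 bases before the start. The Col6a1 and Col6a2 windows shared none of these 4 motifs. A match is a stretch of letters and not evidence that a factor binds there.

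Collagen levels with the hairpin against Spp1 were compared with control levels within each line. In AE17, 8 of 44 collagens were higher on the sh Spp1 array by at least 1 log2 unit and 0 were lower. These were Col1a1, Col3a1, Col5a2 and Col11a1 of the fibrillar class, the FACIT Col12a1, and Col6a1, Col6a2 and Col8a1. In LLC, Col5a2 was higher by that size and Col6a1 and Col6a2 lower, and in MC38 Col8a1 was lower. The other 36 collagens did not reach a ratio of that size in any line.

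Over all genes in AE17, 9.9% were higher by at least 1 log2 unit and 8.71% lower, so the share of collagens past that size in either direction was close to that of all genes and the split between directions was not. For LLC, 1.75% of all genes were higher and 1.81% lower, beside 1 and 2 of 43 collagens. For MC38, 0.882% of all genes were higher and 1.7% lower, beside 0 and 1 of 44 collagens. The scaling moves this balance. With centred arrays 10 of 44 collagens were higher in AE17, beside 19% of all genes, and in the values as deposited 7 of 42 were, beside 10.1%. In LLC, 14 of 44 collagens were lower as deposited, beside 17.1% of all genes, and 0 of 43 with centred arrays, where 2 were higher beside 15.9%.

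**Figure D1:**
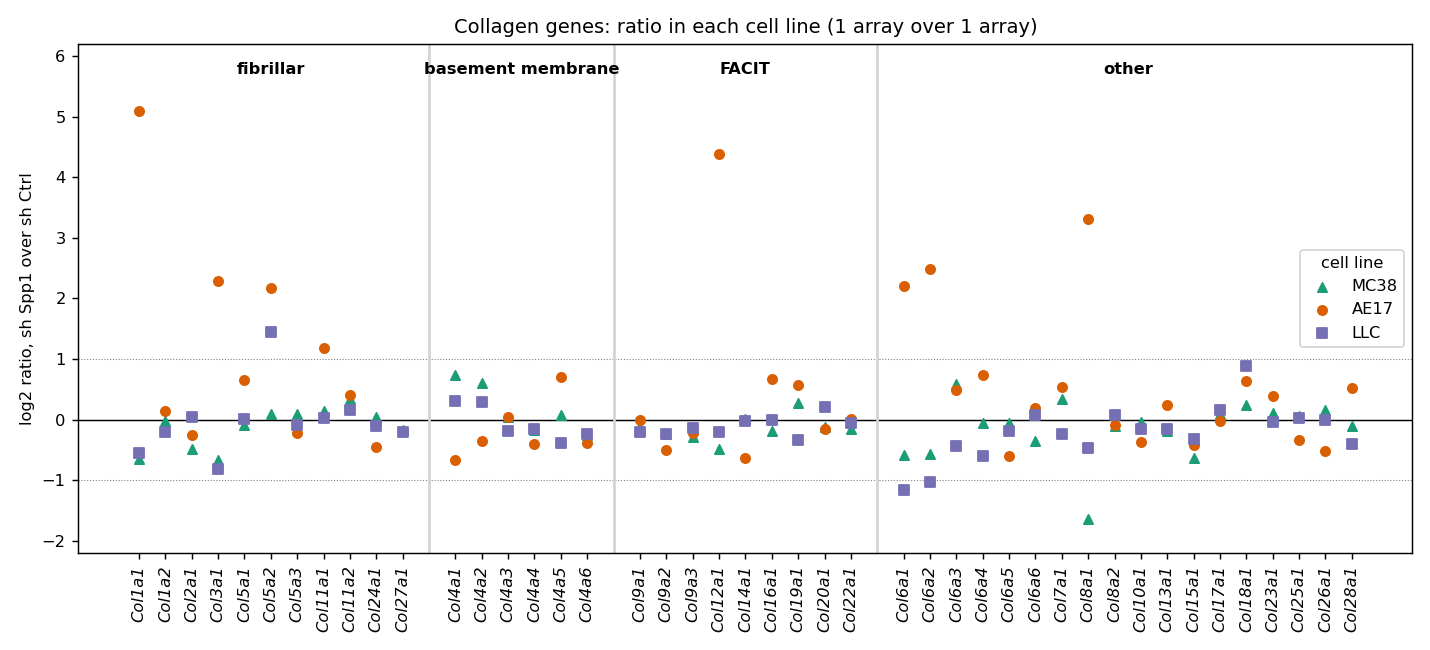
Log2 ratio of sh Spp1 over sh Ctrl (vertical axis) for each of the 44 collagens, by class, with 1 point per cell line and dotted lines at ratios of 1 and -1. Points of AE17 above 1 belong to 8 genes, led by Col1a1 at 5.09 and Col12a1 at 4.39, while no basement membrane collagen passed 1 in any line.

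Col1a1 (Entrez gene 12842) encodes the major chain of type I collagen, the main fibre of bone, tendon and scar. It had log2 levels of 11.96 in AE17, 5.28 in LLC and 8.70 in MC38 on the sh Spp1 arrays, against 6.87, 5.83 and 9.35 on the sh Ctrl arrays of these lines. The sh Spp1 array of AE17 was the highest of all 6, by far above its own control, and the sh Spp1 arrays of LLC and MC38 lay below theirs. The ratio was 5.09 in AE17, or 34.1-fold, with -0.55 in LLC and -0.65 in MC38.

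Col1a2 (Entrez gene 12843) encodes the other chain of type I collagen, whose promoter is shown above. Its levels were 5.89 in AE17, 5.34 in LLC and 6.02 in MC38 on the sh Spp1 arrays, against 5.75, 5.55 and 6.05 on the sh Ctrl arrays. All arrays lay within 0.71 log2 units, and the AE17 ratio was 0.13. The brighter Col1a2 probe set thus showed no ratio like that of Col1a1. The second Col1a2 probe set, at 3.05 and 2.81 in AE17, showed none either. The second was under the floor on all arrays. Whether either probe set responds to this transcript was not tested, so the level of Col1a2 may not be read from them.

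Col3a1 (Entrez gene 12825), the gene of type III collagen of skin and vessel walls, had 9.76 in AE17, 8.90 in LLC and 8.77 in MC38 on the sh Spp1 arrays, against 7.47, 9.71 and 9.44 on the sh Ctrl arrays. The AE17 control was the lowest array and the sh Spp1 array of that line the highest. The ratios were 2.29 in AE17, -0.81 in LLC and -0.67 in MC38. Once arrays were centred on their medians, the LLC ratio was 0.03, so its sign depends on the scaling.

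Col5a2 (Entrez gene 12832) encodes a chain of type V collagen, which starts and limits the width of type I fibres. Levels were 7.62 in AE17, 6.87 in LLC and 7.24 in MC38 on the sh Spp1 arrays, against 5.45, 5.42 and 7.15 on the sh Ctrl arrays. The sh Spp1 arrays of AE17 and LLC lay near both MC38 arrays, and the sh Ctrl arrays of AE17 and LLC lay below all of these. The ratios were 2.18, 1.45 and 0.09, and they stayed above 0 in every line in the values as deposited and with centred arrays. In LLC the ratio was 0.76 in the values as deposited. The neighbour Col3a1 had the opposite sign in LLC.

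The partner chains had smaller ratios. Col5a1 had 8.72 in AE17, 7.73 in LLC and 8.46 in MC38 on the sh Spp1 arrays, against 8.07, 7.72 and 8.55 on the sh Ctrl arrays, and Col5a3 had ratios of -0.23, -0.08 and 0.10. The second probe set of Col5a1 had -0.18 in AE17, where the first had 0.65, so its direction there differs between probe sets. Col11a1, a chain of cartilage fibres, had 5.85 on the sh Spp1 array of AE17 and 4.51 to 4.67 on the other arrays, near the floor. Its AE17 ratio of 1.18 was 0.71 in the values as deposited, below the size counted. Its partner Col11a2 had 0.40 in AE17, 0.15 in LLC and 0.33 in MC38.

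The remaining fibrillar genes were Col2a1, Col24a1 and Col27a1. Their ratios lay between -0.49, for Col2a1 in MC38, and 0.05, for Col2a1 in LLC. The median ratio of all 11 fibrillar genes was 0.40 in AE17, -0.08 in LLC and -0.03 in MC38, beside -0.04, 0.03 and 0.02 over all genes tested.

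Col12a1 (Entrez gene 12816), a FACIT that lines type I fibres in tendon and muscle, had 10.24 on the sh Spp1 array of AE17, against 5.85 on its sh Ctrl array. In LLC it had 4.86 against 5.07, and in MC38 4.60 against 5.09. A single array of the 6 was thus high, 21.0-fold above its control. The ratio was 4.39 in AE17, with -0.21 in LLC and -0.49 in MC38. The other 8 FACITs had ratios in AE17 from -0.64 for Col14a1, which was under the floor on the sh Spp1 array, to 0.67 for Col16a1. Of the 9 FACITs, 2 were above 0 in LLC, 4 in AE17 and 2 in MC38. All of the type IX chains Col9a1, Col9a2 and Col9a3 were below 0 in every line, with ratios from -0.49 to -0.01.

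Type VI collagen forms beaded filaments around cells from chains of Col6a1, Col6a2 and Col6a3. Col6a1 (Entrez gene 12833) had 10.18 in AE17, 8.27 in LLC and 9.68 in MC38 on the sh Spp1 arrays, against 7.98, 9.43 and 10.27 on the sh Ctrl arrays. Col6a2 (Entrez gene 12834) had 8.89, 6.79 and 8.87, against 6.40, 7.82 and 9.44. The sh Spp1 array was higher than its control in AE17 and lower in LLC and MC38 for both genes. Ratios of Col6a1 and Col6a2 were 2.20 and 2.49 in AE17, with -1.16 and -1.03 in LLC and with -0.58 and -0.57 in MC38.

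The ratios of these neighbours, whose promoters are shown above, had the same sign in each line. With centred arrays their LLC ratios were -0.41 and -0.68 and their MC38 ratios -0.02 and -0.03. The second Col6a1 probe set had 1.77 in AE17, -0.35 in LLC and 0.10 in MC38. Col6a3, which lies elsewhere in the genome, had 0.48, -0.44 and 0.58, so in MC38 it went opposite to Col6a1 and Col6a2. The related Col6a4, Col6a5 and Col6a6 had AE17 ratios of 0.74, -0.60 and 0.18. Col6a5 was under the floor on the sh Spp1 array of AE17, at 4.38.

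Col8a1 (Entrez gene 12837), a short-chain collagen of the network under corneal endothelium and in vessel walls, had 9.58 in AE17, 9.56 in LLC and 8.85 in MC38 on the sh Spp1 arrays. The corresponding sh Ctrl arrays had 6.27, 10.04 and 10.48. The AE17 control stood apart as the low array, while the MC38 arrays differed the other way. The ratio was 3.31 in AE17, or 9.91-fold, -0.48 in LLC and -1.64 in MC38, and centring the arrays turned that of LLC to 0.45. Its partner Col8a2 lay within 0.25 log2 units on all arrays, at 4.59 to 4.84.

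**Figure D2:**
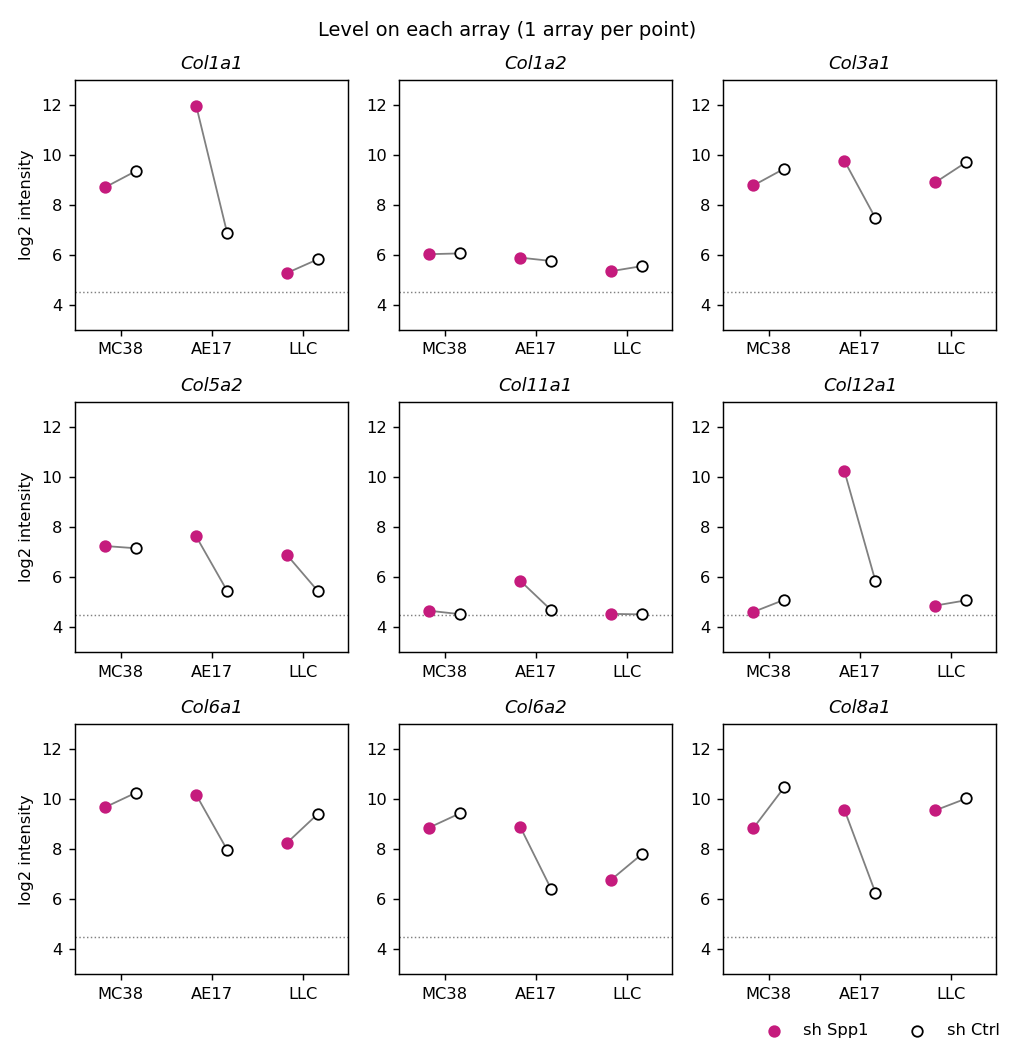
Log2 intensity on each array (vertical axis) for the 8 collagens with a ratio of at least 1 in size in any line, and for Col1a2, by cell line, with filled points for sh Spp1, open points for sh Ctrl and the floor dotted. In AE17 the filled point lies above the open one by 1.18 to 5.09 for the 8 genes. The brighter Col1a2 probe set is flat on all arrays.

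No basement membrane collagen had a ratio of 1 or more in size in any line. Col4a1 (Entrez gene 12826) and Col4a2 (Entrez gene 12827) encode the chains of the type IV network found in nearly all basement membranes. Col4a1 had 7.95 in AE17, 8.50 in LLC and 8.07 in MC38 on the sh Spp1 arrays, against 8.61, 8.20 and 7.34 on the sh Ctrl arrays. Col4a2 had 8.37, 8.51 and 8.29, against 8.73, 8.22 and 7.68. For both genes the AE17 control was the highest array and the MC38 control the lowest.

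The ratios of Col4a1 and Col4a2 were -0.66 and -0.36 in AE17, with 0.30 and 0.29 in LLC and with 0.73 and 0.61 in MC38. The head-to-head pair thus had the same sign in every line, and in AE17 a sign opposite to that of Col1a1, Col3a1 and Col6a1. With centred arrays the AE17 ratios were -0.10 and 0.20, so the sign of Col4a2 there depends on the scaling, and in MC38 they were 1.12 and 1.03.

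The other type IV genes form head-to-head pairs too. Col4a5 and Col4a6 start 1343 bases apart and had 0.71 and -0.39 in AE17, -0.38 and -0.24 in LLC, and 0.07 and -0.26 in MC38. Col4a3 and Col4a4, chains of the kidney filter, had levels of 4.46 to 5.07 on all arrays, near the floor, and ratios of 0.05 and -0.41 in AE17. Of the 6 basement membrane genes, 2 were above 0 in AE17, 2 in LLC and 4 in MC38.

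**Figure D3:**
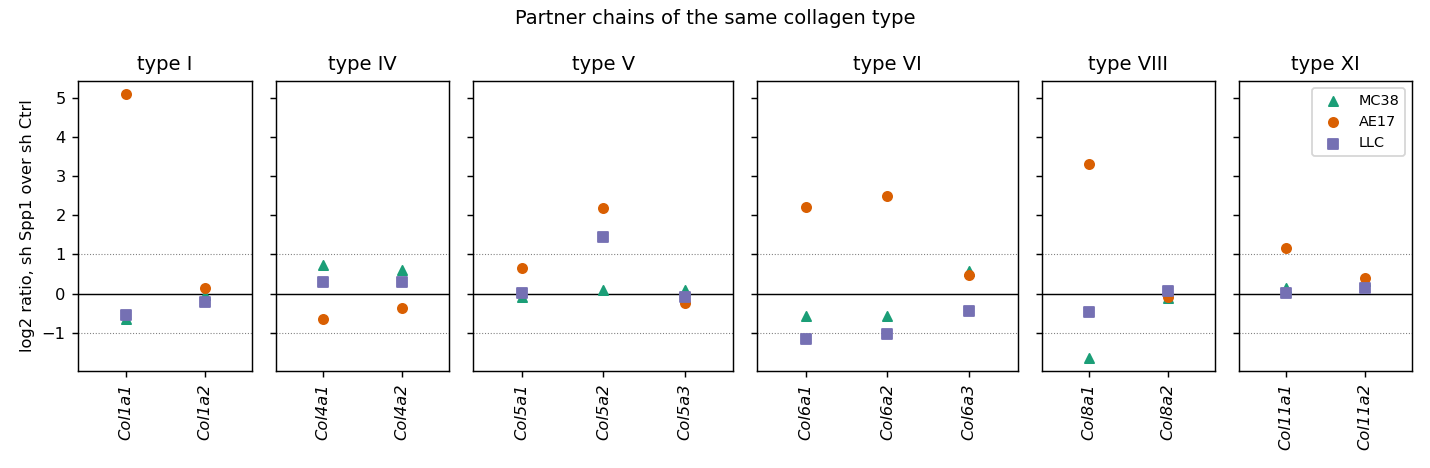
Log2 ratio of sh Spp1 over sh Ctrl (vertical axis) for partner chains of 6 collagen types, with 1 point per cell line and dotted lines at 1 and -1. Col4a1 and Col4a2 lie together in each line, as do Col6a1 and Col6a2, while Col1a1 at 5.09 and Col8a1 at 3.31 stand above Col1a2 at 0.13 and Col8a2 at -0.09 in AE17.

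Among the other classes, Col18a1 (Entrez gene 12822), whose cleaved end is the angiogenesis inhibitor endostatin, had 7.05 in AE17, 8.56 in LLC and 7.41 in MC38 on the sh Spp1 arrays, against 6.42, 7.68 and 7.18 on the sh Ctrl arrays. The sh Spp1 array was the higher in every line, in the values as deposited and with centred arrays too. Its mean ratio was 0.58 ± 0.33 (SD, n = 3 lines). Col15a1, the related multiplexin, had 4.42, 4.27 and 4.43, against 4.84, 4.59 and 5.07, and a mean ratio of -0.46 ± 0.17. All 3 of its sh Spp1 levels were under the floor, so the size is approximate.

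The membrane collagens Col13a1, Col17a1, Col23a1 and Col25a1 had ratios between -0.34 and 0.39 over the lines. Col7a1, the anchoring fibril of skin, had 0.54 in AE17, -0.23 in LLC and 0.34 in MC38. Col10a1, a collagen of growth plate cartilage, had -0.37, -0.16 and -0.04, and Col26a1 -0.51, -0.01 and 0.15.

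Over the 3 lines together, 0 of 43 collagens passed limma with the cell line as a block at an adjusted p of 0.05, and 0% of all 16797 genes did. At an unadjusted p under 0.05 there were 3 collagens, or 6.98% of those tested, beside 6.05% of all genes. They were Col5a2, with a mean ratio of 1.24 ± 1.06 (SD, n = 3 lines), Col18a1 and Col15a1, each with an adjusted p of 0.723 in limma. Col1a1 had a mean ratio of 1.30 ± 3.29 and an adjusted p of 0.769 in limma, with AE17 above 0 and the other lines below it. The tests measure the spread between lines, since each line has 1 culture per hairpin.

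Ratios had the same sign in all 3 lines for 13 of 43 collagens. Col5a2, Col11a1, Col11a2 and Col18a1 were higher on each sh Spp1 array, beside 16.8% of all genes. The 9 that were lower were Col27a1, Col4a4, Col4a6, Col9a1, Col9a2, Col9a3, Col6a5, Col10a1 and Col15a1, beside 15.5% of all genes. In the values as deposited, where all genes had median ratios of -0.23 in AE17, -0.46 in LLC and 0.08 in MC38, 2 were higher in all lines and 21 lower. With centred arrays, where those medians were 0.22 in AE17, 0.33 in LLC and 0.26 in MC38, 6 were higher and 10 lower.

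Genes that mark fibroblasts and other mesenchymal cells differed between the same arrays. The summed normalized intensity of 9 fibroblast and mesenchymal markers, none of them a collagen, was 5259 on the sh Spp1 array of AE17 and 2648 on its sh Ctrl array. The sh Spp1 array of LLC had 1176 and its sh Ctrl array 3691. The sh Spp1 array of MC38 had 3856 and its sh Ctrl array 5770. In AE17, 4 of the 9 were higher by at least 1 log2 unit and 1 lower, beside 9.9% and 8.71% of all genes. In LLC 0 were higher and 5 lower, beside 1.75% and 1.81%, and in MC38 0 were higher and 1 lower, beside 0.882% and 1.7%. Other marker lists differed on the AE17 arrays too. The 7 lung and simple epithelium markers summed to 289 on the sh Spp1 array and 2392 on the sh Ctrl array, with Krt8 at 6.47 and 11.08, and 2 of the 7 were lower by at least 1. The 3 myofibroblast markers summed to 4670 and 2951, with 1 higher and 1 lower by that size. The part of any of these lists in the collagen ratios was not tested.

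The second comparison set the cell lines against each other, with both arrays of a line. Collagen levels varied over the 6 arrays by a median of 0.64 log2 units per gene, beside 0.90 over all genes tested. The range was at least 1 log2 unit for 16 of 43 collagens, beside 43.3% of all genes. It was at least 2 for Col1a1, Col12a1, Col6a3, Col8a1, Col6a2, Col3a1, Col6a1, Col5a2 and Col18a1. The share of all genes at that range is not given, so these are named as a description only. In limma with the hairpin as a second term, 0 collagens passed at an adjusted p of 0.05 in MC38 over LLC, in MC38 over AE17 or in AE17 over LLC, and 0% of all genes did. At an unadjusted p under 0.05 there were 6, 2 and 3 collagens of 43, beside 11.5%, 13.2% and 12.8% of all genes. These fits have 2 residual degrees of freedom. The sh Spp1 and sh Ctrl arrays of a line stand in as its repeats, so the p-values do not measure spread between repeated cultures.

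Col6a3 (Entrez gene 12835), the chain of type VI collagen that carries endotrophin at its end, had 9.64 on the sh Spp1 array and 9.06 on the sh Ctrl array of MC38. It had 7.82 and 7.34 in AE17, and 5.08 and 5.52 in LLC. The lines did not overlap, and MC38 was the highest and LLC the lowest. MC38 was above LLC by 4.05 ± 0.33 log2 units (SE), with an adjusted p of 0.0559 in limma. It passed the threshold in the values as deposited, at an adjusted p of 0.00866, and with no filter on dim genes, at 0.0448. It did not pass with centred arrays, with a filter at the 20th percentile or with the mean of all probe sets of a gene. MC38 was above AE17 by 1.77, with an adjusted p of 0.175, and AE17 above LLC by 2.28, with an adjusted p of 0.204. Its partners Col6a1 and Col6a2 differed by 1.13 and 1.85 between MC38 and LLC, with arrays of AE17 on both sides of LLC.

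Since the AE17 arrays differed most from each other, MC38 was also set against LLC without them, in a fit of 4 arrays with 1 residual degree of freedom that was added after the data were seen. It called 5 of 43 collagens, 4 higher and 1 lower in MC38, beside 6.14% of all genes, 3.41% higher and 2.74% lower. Col1a1 was higher in MC38 by 3.47 ± 0.19 (SE), with an adjusted p of 0.00196 in limma, and Col6a3 by 4.05, with an adjusted p of 0.0029. Col6a2 was higher by 1.85 and Col4a5 by 1.39, with adjusted p of 0.0106 and 0.0247, and Col16a1 differed by -0.98, with an adjusted p of 0.0496. Col6a1 missed the threshold at an adjusted p of 0.0516.

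Col4a5, a chain of type IV collagen in kidney and skin, had 6.63 on the sh Spp1 array and 6.56 on the sh Ctrl array of MC38, 6.74 and 6.03 on those of AE17, and 5.01 and 5.39 on those of LLC. MC38 and AE17 overlapped and LLC lay below both. Col16a1, a FACIT of skin and cartilage, had 5.55 on the sh Spp1 array and 5.73 on the sh Ctrl array of MC38, 6.79 and 6.12 on those of AE17, and 6.62 and 6.61 on those of LLC, so that MC38 was the lowest line. Col18a1 had its highest levels in LLC, which did not overlap with the other lines. AE17 differed from LLC in Col18a1 by -1.38 ± 0.25 (SE), with an adjusted p of 0.251 in limma, and MC38 from LLC by -0.82, with an adjusted p of 0.339.

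**Figure D4:**
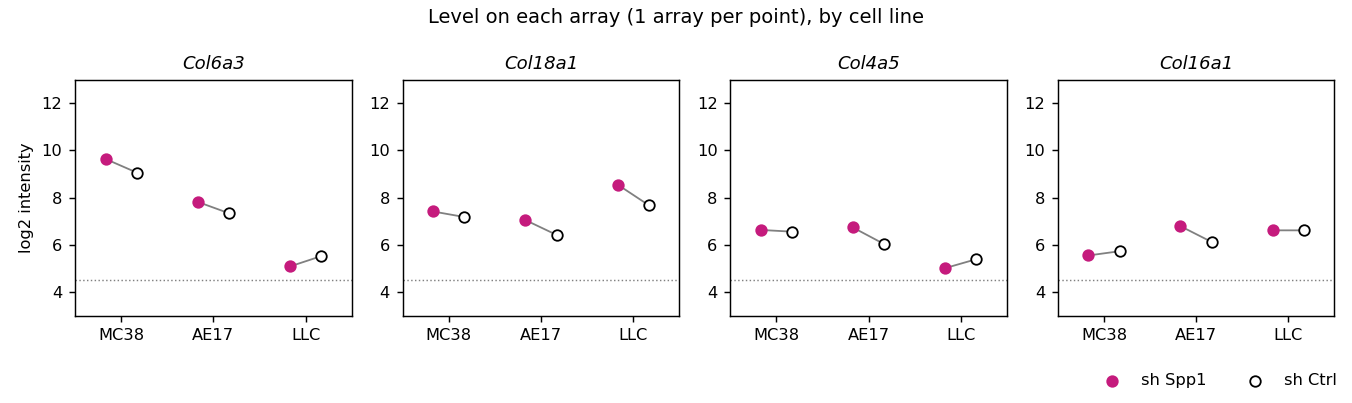
Log2 intensity on each array (vertical axis) of Col6a3, Col18a1, Col4a5 and Col16a1 by cell line, with filled points for sh Spp1, open points for sh Ctrl and the floor dotted. For Col6a3 the lines are apart, with MC38 at 9.64 and 9.06 and LLC at 5.08 and 5.52.

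Across the 43 collagens, the sh Spp1 array of AE17 correlated with the sh Ctrl array of MC38 at r = 0.843 and with the sh Ctrl array of its own line at 0.701. Its correlation with the sh Spp1 array of MC38 was 0.806, and with the LLC arrays it was 0.633 for sh Spp1 and 0.698 for sh Ctrl. The sh Spp1 array of AE17 thus exceeded its correlation with its own control only with the MC38 arrays. The sh Ctrl array of AE17 correlated more with every array of the other lines than with the sh Spp1 array of its own. It had 0.816 with MC38 sh Spp1, 0.751 with MC38 sh Ctrl, 0.763 with LLC sh Spp1 and 0.776 with LLC sh Ctrl. The arrays of LLC correlated with each other at 0.954 and those of MC38 at 0.970. The points are genes, which share probe brightness, so these values are a description. Over all probe sets, the AE17 arrays correlated with each other at r = 0.939. Each of them correlated more with every array of the other lines, at 0.942 to 0.954. A correlation with other lines above that within AE17 is thus not particular to collagens. The sh Spp1 array of AE17 and the sh Ctrl array of MC38 differed by at least 1 log2 unit in 5 collagens of 43, beside 15.7% of all genes.

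Collagen chains are hydroxylated, folded, exported, trimmed and cross-linked by a set of enzymes and chaperones. The list of 37 genes also took in other proteins, such as the transcription factor Creb3l1 and Tmem38b. These had AE17 ratios of 3.66 and 2.11, and both are in the counts below. Of the listed genes 33 were found and 32 tested. In AE17, 27 were above 0 and 5 below, with a median ratio of 0.42, where 47.3% of all genes were above 0. There 9 were higher by at least 1 log2 unit and 2 lower, beside 9.9% and 8.71% of all genes. In LLC 11 were above 0 and 21 below, and in MC38 14 and 18, with 0 past that size in either line. The limma test over the lines called 0 of the 32.

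Lox, which cross-links collagen and elastin, had 11.14 in AE17, 4.32 in LLC and 5.27 in MC38 on the sh Spp1 arrays, against 6.15, 4.24 and 4.86 on the sh Ctrl arrays. A single array was high, as for Col12a1, and the ratios were 4.99, 0.08 and 0.41. Its relative Loxl1 had 9.39 on the sh Spp1 array of AE17 against 5.50 on the sh Ctrl array, with ratios of 3.89, 0.35 and 0.41. Both had an adjusted p of 0.723 in limma over the lines.

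The procollagen peptidase Adamts3 had 3.71 on the sh Spp1 array of AE17, under the floor, against 6.58 on the sh Ctrl array. Mia3, which loads procollagen into transport carriers, had a ratio of -1.08 in AE17. Loxl3 had -0.96 in LLC, -0.52 in MC38 and 0.25 in AE17. Creb3l1, a transcription factor known to act on type I collagen genes in bone, was chosen after its values were seen. It had 9.27 on the sh Spp1 array of AE17 against 5.61 on the sh Ctrl array, with ratios of -0.84 in LLC and -0.36 in MC38.

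**Figure D5:**
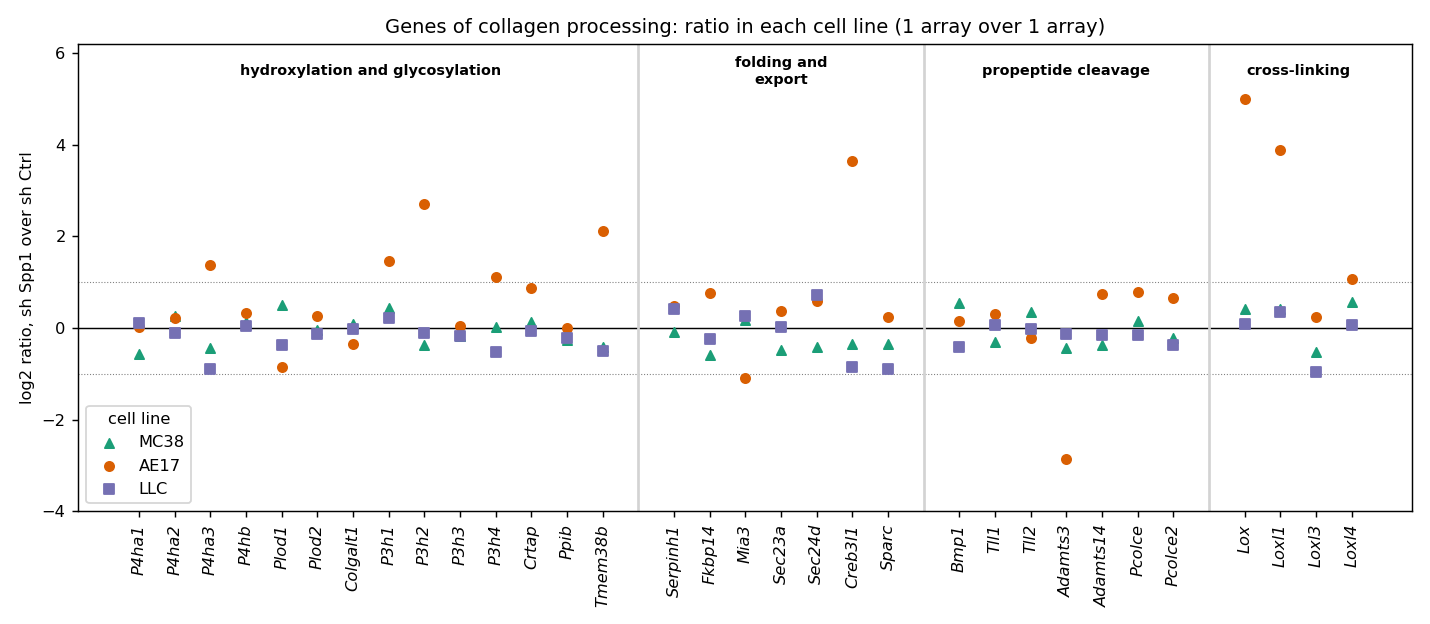
Log2 ratio of sh Spp1 over sh Ctrl (vertical axis) for the 32 tested genes of collagen processing, by step, with 1 point per cell line and dotted lines at 1 and -1. Most points of AE17 lie above 0, with Lox at 4.99 and Loxl1 at 3.89, and Adamts3 lies at -2.87.

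Of 10 listed collagen receptors 9 were found and 8 tested. In AE17, the endocytic receptor Mrc2 had 9.87 on the sh Spp1 array against 6.46 on the sh Ctrl array, a ratio of 3.41. The integrin chain Itga11, which binds type I collagen, had 8.51 against 5.62, a ratio of 2.88. The integrin chain Itga2 went the other way, with 5.38 against 6.87, and Itgb1 had a ratio of -0.76. Itga1, which prefers type IV collagen, had 4.10 against 5.22 in MC38, where the sh Spp1 array was under the floor.

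Of 8 collagenases and related proteases 5 were tested. Mmp2, a gelatinase, had 6.09 on the sh Spp1 array of AE17 against 11.76 on the sh Ctrl array, a ratio of -5.67, with -0.73 in LLC and -1.04 in MC38. Mmp9 had -0.91 in AE17, -0.65 in LLC and -2.08 in MC38. Mmp13, a collagenase, had 5.64 in AE17, 4.12 in LLC and 4.69 in MC38 on the sh Spp1 arrays, against 4.53, 6.07 and 6.40 on the sh Ctrl arrays. The LLC sh Spp1 level was under the floor and the AE17 sh Ctrl level near it, so the ratios of 1.11 in AE17 and -1.95 in LLC are approximate, beside -1.71 in MC38. The membrane-bound Mmp14, which activates Mmp2, had 0.73 in AE17, and Ctsk had -0.09. The limma test over the lines called 0 receptors and 0 collagenases, as it called 0 of all genes, with 1017 genes at an unadjusted p under 0.05.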

How the data were processed

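RNA of 6 cultures was hybridised to 1-colour whole-transcript arrays, 1 array per culture. The authors deposited 1 linear intensity per probe set and array, made with GeneSpring GX 12.5, per the design text, and RMA is named in the submitters' processing notes. The deposited medians ran between 26.6 and 64.2, so the intensities were taken as linear and not brought to 1 distribution. They were converted to log2 and quantile normalized, with values as deposited and median-centred arrays as alternatives. A total of 23521 probe sets had 1 gene symbol in the platform annotation, 1814 several and 16010 none. The brightest probe set stood for a gene, and genes under the 30th percentile of mean brightness were not tested, which left 16797.

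Groups came from the sample titles. limma 3.58.1 in R 4.3.3 (lmFit and eBayes, two-sided, Benjamini-Hochberg adjustment over all genes tested) fitted cell line and hairpin together, and was tested on simulated data. With 3 lines an exact sign-flip test cannot go below p = 0.25. Within a line, genes with at least 1 of both arrays at or above the floor were counted. The number of arrays limits the precision. Nothing in the labels says that cultures were repeated within a line, so p-values of sh Spp1 over sh Ctrl measure the spread between lines. For the contrasts between lines, the sh Spp1 and sh Ctrl arrays of a line stand in as its repeats. Those p-values rest on how the ratio differs between lines and not on repeated cultures. Pairing of the arrays comes from the cell line, which the fit holds as a block. Collagens with a ratio of at least 1 in size in any line, those called in any fit, and their partner chains were named with all values, and from the other lists the 2 highest and 2 lowest mean ratios and AE17 ratios. The members and lists were chosen with earlier results of these data known.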

Additional observations from a re-analysis of the deposited data

Results flagged for a closer look

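For 11 collagens the ratio of sh Spp1 over sh Ctrl was above 0 in AE17 and below 0 in both LLC and MC38. The AE17 ratio exceeded the mean of the LLC and MC38 ratios by 5.69 for Col1a1, 4.74 for Col12a1 and 4.36 for Col8a1. It did so by 3.29 for Col6a2, 3.07 for Col6a1, 3.03 for Col3a1 and 1.07 for Col6a4. The excess was 0.78 for Col28a1, which was not tested for its low brightness, 0.42 for Col13a1, 0.25 for Col1a2 and 0.12 for Col22a1. For 4 collagens the signs ran the other way, with differences of -1.18 for Col4a1, -0.81 for Col4a2, -0.38 for Col25a1 and -0.15 for Col17a1. With 1 array per line and hairpin, no difference between lines was tested. The shares of all genes with these sign patterns are not given, so the counts are not read as a trait of collagens. With centred arrays the signs no longer opposed for Col3a1 and Col8a1, whose LLC ratios were 0.03 and 0.45, for Col1a2, at 0.05 in MC38, or for Col4a2 and Col17a1, at 0.20 and 0.07 in AE17. In the values as deposited all 3 ratios were below 0 for Col13a1, Col17a1, Col1a2, Col22a1, Col25a1 and Col28a1. The signs opposed in all 3 scalings for Col1a1, Col12a1, Col6a1, Col6a2, Col6a4 and Col4a1.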

How the results depend on the processing

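The test of sh Spp1 over sh Ctrl across the lines called 0 genes and 0 collagens under all 12 alternatives, including no replicate block (0 genes) and each line left out in turn (0 to 0). In AE17 over LLC, genes called numbered 103 in the values as deposited, 1 with trend and robust eBayes and 9 with no hairpin term. The values as deposited called 1 collagen, Col18a1. In MC38 over LLC the counts were 225 as deposited, 42 with a filter at the 50th percentile, 44 with no filter, 50 with trend and robust eBayes, 474 with array weights, 89 with no hairpin term and 1032 without the AE17 arrays. Collagens called there numbered 1 in each of these except 2 with array weights (Col6a3 and Col4a5) and 5 without AE17. In MC38 over AE17 they were 287, 27 at the 50th percentile, 1 with trend and robust eBayes and 100 with no hairpin term, with 0 collagens. In all of these comparisons between lines, centred arrays, a filter at the 20th percentile and the mean of all probe sets called 0 genes. The cause of these differences was not tested.

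Within lines, the values as deposited gave 0 collagens higher and 14 lower in LLC, where 17.1% of all genes were lower, and 7 higher and 2 lower in AE17, beside 10.1% and 13.1%. Centred arrays gave 2 higher and 0 lower in LLC, beside 15.9% and 0.918%, 10 higher in AE17, beside 19%, and 3 higher in MC38, beside 5.03%. The mean of all probe sets gave 1 lower in LLC. At 1.5-fold, AE17 had 13 higher and 3 lower, while LLC had 2 higher and 4 lower and MC38 also had 2 and 4. At a log2 ratio of 2, AE17 had 7 higher and 0 lower, and LLC and MC38 had 0 and 0. The shares of all genes at these sizes are not given, so the counts are not read as a trait of collagens. As deposited, 17 of 43 collagens were above 0 in AE17, 4 in LLC and 13 in MC38. With centred arrays these were 27, 16 and 18, and in the quantile values 23, 14 and 18. Scaling moves all genes, and above the median ratio of all genes lay 20, 6 and 10 as deposited and with centred arrays alike. In the quantile values 25, 10 and 17 lay above it. Signal near the floor limits, among others, Col11a1, Col14a1, Col15a1, Col19a1, Col4a3, Col4a4, Col6a5, Col8a2 and Col28a1.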
